A study of Mus musculus with 12 samples.

Results

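Genes of programmed cell death were followed through mouse p53 knockout sarcomas and bone marrow stromal cells. They are Bax, Bak1, Bbc3, Pmaip1, Bcl2l11, Bcl2, Bcl2l1, Mcl1, Fas and Tnfrsf10b. They were taken by name and make up 10 of the 24421 genes in the deposited expression table. All 10 were among the 18948 genes tested. The libraries were 6 of tumors from p53 knockout mice, arising in bone or bone marrow, 3 of mesenchymal stem cells (MSCs) from knockout mice (KO MSC) and 3 of MSCs from p53 wild-type mice (WT MSC). All cells were freshly isolated, with no treatment given in the labels. MSCs had been sorted from marrow as cells lacking CD45, Ter119 and CD31 and carrying the leptin receptor and CD140a. For tumors the labels give the cell type as tumor cell but describe no sort, so the share of tumor cells in these libraries is unknown. Age, strain and the deleted part of Trp53 are not stated in the labels. Nor do they say that libraries of a group stem from different mice, so the p-values rest on the spread among libraries, part of which may be technical.

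Cells that die by the mitochondrial route of apoptosis do so when the effectors Bax or Bak1 open the outer mitochondrial membrane and release cytochrome c, which with Apaf1 activates caspase 9. The guardians Bcl2, Bcl2l1 (Bcl-xL) and Mcl1 hold the effectors in check. BH3-only proteins such as Bbc3 (PUMA), Pmaip1 (NOXA) and Bcl2l11 (BIM) bind the guardians and free the effectors. On the other route, the death receptors Fas and Tnfrsf10b (the TRAIL receptor) sit on the cell surface and, once their ligands bind, recruit Fadd and caspase 8. Bax, Bbc3, Pmaip1, Fas and Tnfrsf10b are textbook targets that p53 can switch on.

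The stretches before the starts of Bax and Fas are shown because Bax is a member that differed between tumors and WT MSC, and Fas, also a known p53 target, had the lowest difference of tumors from WT MSC among the 10. Each runs 5′ to 3′ on the gene's strand over the 250 bases before the annotated start (RefSeq, GRCm38.p6). Capitals mark GC boxes (GGGCGG, or CCGCCC where it lies on the other strand) and, in Bax, a match to the p53 decamer, the 10-letter unit of the p53 binding motif.
Bax, chr7:45466899-45467148, minus strand: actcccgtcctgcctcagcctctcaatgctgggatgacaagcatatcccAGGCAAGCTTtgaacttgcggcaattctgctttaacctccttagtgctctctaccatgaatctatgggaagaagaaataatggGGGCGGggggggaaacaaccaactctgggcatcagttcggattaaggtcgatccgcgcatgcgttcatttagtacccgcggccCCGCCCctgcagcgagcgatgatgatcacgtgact
Fas, chr19:34290409-34290658, plus strand: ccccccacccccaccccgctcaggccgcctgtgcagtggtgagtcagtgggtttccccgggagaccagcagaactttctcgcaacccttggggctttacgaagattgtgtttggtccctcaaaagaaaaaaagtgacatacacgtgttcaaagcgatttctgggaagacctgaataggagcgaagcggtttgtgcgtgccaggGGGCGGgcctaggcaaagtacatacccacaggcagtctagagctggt
The Bax gene lies at chr7:45461697-45466898 on the minus strand and the Fas gene at chr19:34290666-34327772 on the plus strand (GENCODE M21, mm10), so both stretches lie just outside the annotated genes. The Bax match begins at position -201 relative to the start. RefSeq entries of 8 of the 10 genes were searched, giving 13 promoters, since some genes have several starts. Pmaip1, which was left out, and Tnfrsf10b, which had no entry, are not among them. Searched on both strands, the p53 decamer was in 1 of these 13, against 7.13% of all 32851 promoters of the same length. GC boxes were in 9 of 13 (32.7% of all promoters), CCAAT in 3 (33.8%) and TATAAA in 0 (12.4%). These are letter matches in a window and say nothing of binding.

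Values are the deposited log2 expression values after variance stabilization and batch adjustment, as the table's title names them. On this scale low genes flatten to a floor, which can understate their differences. The floor of a gene can also differ between batches, which can shift its differences either way. Depth per library is unknown. Exactly shared floor values divide the libraries into a batch 1 (tumors 1 to 3, KO_MSC 1 and WT_MSC 1) and a batch 2 (tumors 4 to 6, KO_MSC 2 and 3, WT_MSC 2 and 3). At the floor were 2569 genes in the library labelled KO_MSC 1, 3594 in WT_MSC 1 and 8886 to 12313 in the others, with the most in that labelled KO_MSC 3. Trp53 itself had a lowest value of 6.79, a median of 7.68 and a highest value of 9.16 in tumors. In the libraries labelled KO_MSC 1, 2 and 3 it stood at 10.49, 9.76 and 6.96, and in WT_MSC 1, 2 and 3 at 9.96, 10.04 and 10.61. The libraries labelled KO_MSC 1 and 2 thus lay within or close to the WT MSC range, against their label. What this says of their genotype is limited, since the labels do not tell which part of the gene is deleted. The Trp53 difference of KO from WT MSC was -1.13 ± 0.84 (SE, limma, adjusted p = 0.731). It was -3.25 with the library labelled KO_MSC 3 alone, which had been set apart by its Trp53 value. KO MSC results below use these labels. For the 10 genes, calls that change without both libraries are given beside them. For the other lists, calls lost are named and calls gained are only counted.

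Markers of other cells differed along with the groups, and their part in the results below was not tested. The summed level of 8 macrophage markers was 85.8 to 109.1 in tumors, 42.7 to 53.7 in KO MSC and 40.3 to 52.99 in WT MSC, and 8 of 8 rose in tumors against WT MSC and 7 of 8 against KO MSC. For 5 endothelial markers the summed level was 32.1 to 43.1 in tumors, 24.7 to 26.2 in KO MSC and 24.2 to 27.1 in WT MSC. Of these, 5 of 5 rose in tumors against WT MSC and 3 of 5 against KO MSC. All 5 endothelial markers were at the floor in the libraries labelled KO_MSC 2 and 3. The 8 markers of leptin receptor-positive stroma summed to 56.0 to 74.9 in tumors, 92.6 to 98.0 in KO MSC and 102.8 to 110.2 in WT MSC. In tumors 8 of 8 fell against WT MSC and 4 of 8 against KO MSC. Despite the sort against CD45, 7 neutrophil markers summed to 60.7 to 90.6 in KO MSC and 51.3 to 77.9 in WT MSC, above the 37.4 to 55.5 of tumors in all but the lowest of the WT MSC, and in tumors 5 of 7 fell against KO MSC and 2 of 7 against WT MSC. The 5 erythroid markers summed to 31.2 to 48.9 in tumors, 52.1 to 61.0 in KO MSC and 46.8 to 59.6 in WT MSC, and 2 of 5 (Car1 and Klf1) fell in tumors against each MSC group. The 6 lymphocyte markers summed to 32.1 to 40.9 in tumors, 29.9 to 32.4 in KO MSC and 29.9 to 30.6 in WT MSC. In tumors 2 of 6 (Cd3d and Cd3g) rose against each MSC group. All 6 were at the floor in the libraries labelled KO_MSC 2 and 3 and in WT_MSC 2 and 3. The sum of 29.9 there is one of floor values alone, since genes at the floor still add to a sum. For 5 skeletal muscle markers, 0 of which passed, the sums were 28.3 to 78.2 in tumors, highest in tumor 4, 25.8 to 30.9 in KO MSC and 24.5 to 29.4 in WT MSC. In bulk RNA, fewer cells of a type and less RNA per cell cannot be told apart.

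Across the 10 genes, tumors differed from WT MSC in Bax and Pmaip1, which rose, while the other 8 did not pass the test (limma, two-sided, Benjamini-Hochberg adjustment over all genes tested, adjusted p under 0.05). Of all genes tested, 21.3% passed in this comparison, 10.4% higher and 10.9% lower in tumors, so a count of 2 of 10 is near the background. Of the 10, 3 had an unadjusted p under 0.05 (37.2% of all genes) and 2 had groups that did not overlap (25.2% of all genes). Against KO MSC, 0 of the 10 passed with limma (2 at an unadjusted p under 0.05, as in 26.5% of all genes), where 4.98% of all genes passed, 2.7% higher and 2.28% lower. None of the 10 was free of overlap there, against 13.4% of all genes. Between KO and WT MSC 0 of the 10 passed and 0 reached an unadjusted p under 0.05. There, 0 of all genes passed and 8.64% had an unadjusted p under 0.05. Of the 10, 2 (Bax and Bbc3) had MSC groups that did not overlap, against 15.2% of all genes. The median difference of the 10 genes was 0.23 in tumors against WT MSC, where all genes had a median of -0.06. It was 0.39 in tumors against KO MSC, where all genes had 0.04.

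**Figure D1:**
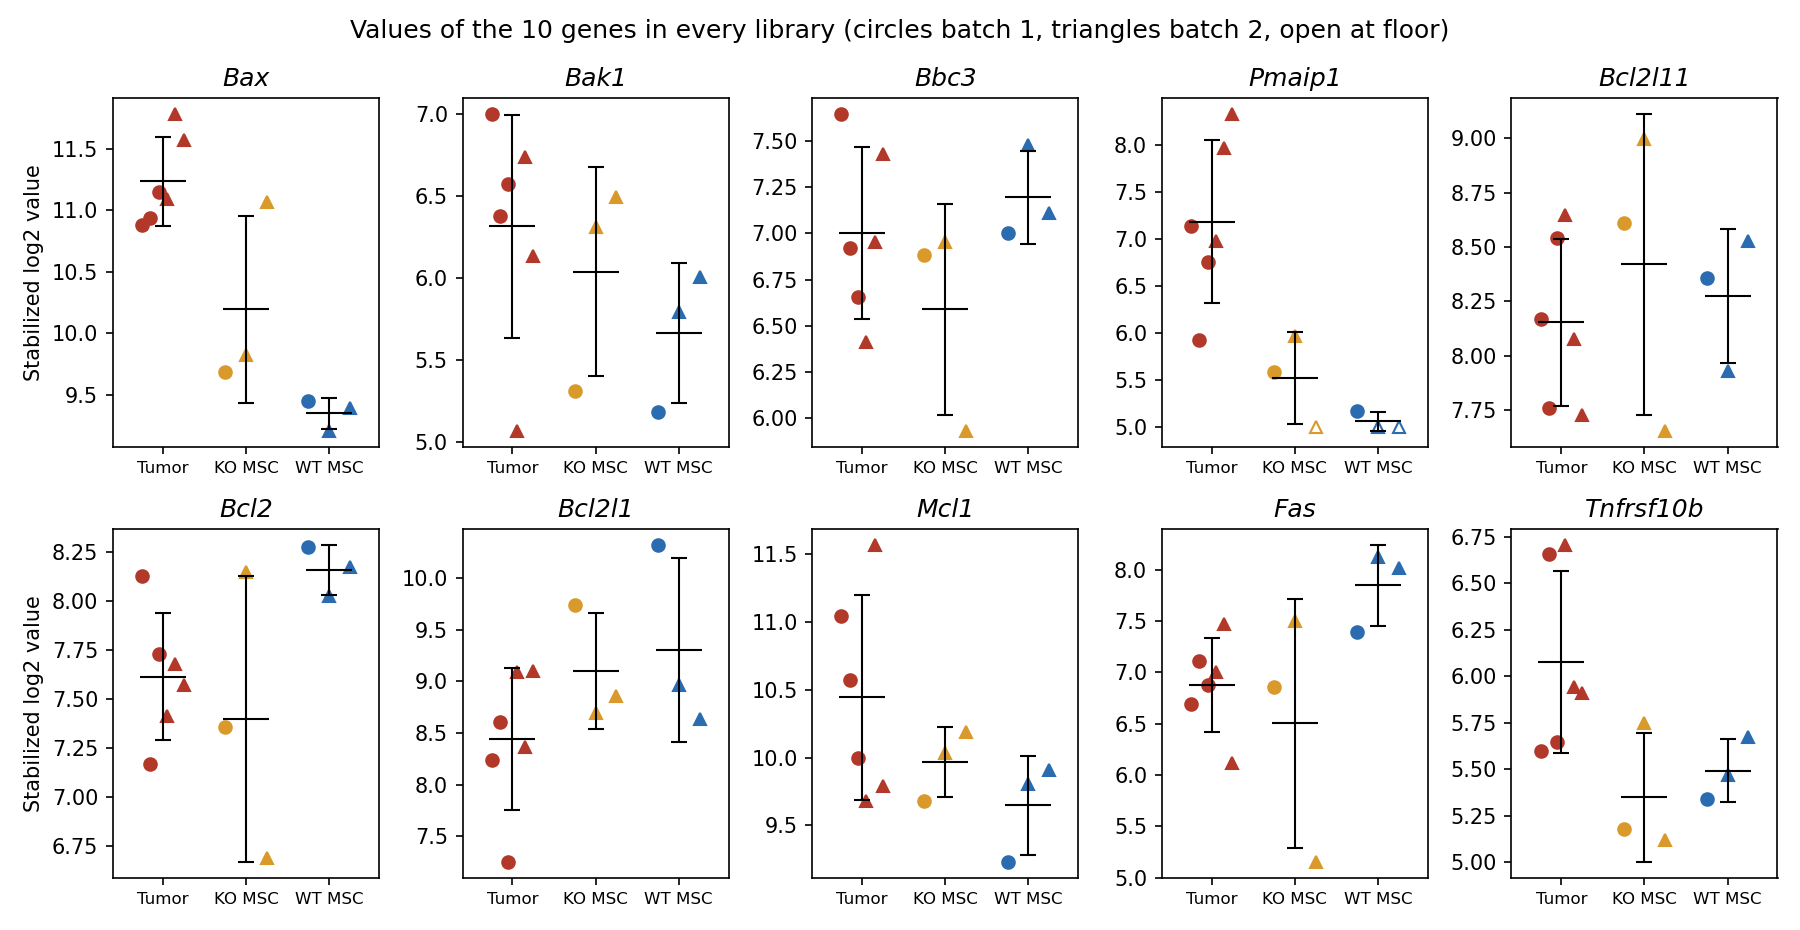
Deposited log2 value (vertical axes) of each of the 10 genes in every library of tumors, KO MSC and WT MSC, with circles for batch 1, triangles for batch 2 and bars for the mean ± SD of 6, 3 and 3 libraries. Bax and Pmaip1 in tumors lie wholly above the WT MSC, from 10.88 and from 5.93 upward.

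Among the effectors, Bax stood out. Its lowest, median and highest values in tumors were 10.88, 11.12 and 11.78. The libraries labelled KO_MSC 1, 2 and 3 had 9.69, 9.82 and 11.07, and WT_MSC 1, 2 and 3 had 9.45, 9.21 and 9.39. All tumors lay above all WT MSC, and 2 of the 3 KO MSC lay between them while the library labelled KO_MSC 3 was within the tumor range. Bax was 1.88 ± 0.30 (SE) higher in tumors than in WT MSC on the log2 scale, 3.69-fold on the stabilized values, with an adjusted p of 0.00242, and higher in 6 of 6 tumors than any WT MSC. Within batch 1 the difference was 1.54 (1 WT MSC library, no test), and within batch 2 it was 2.18 (adjusted p = 0.0514). Over 21 alternatives with a test Bax kept its direction in all and passed in 19, with adjusted p between 0.000174 and 0.0538. Corrected for transcript length (an alternative described with the lengths below), the Bax difference was 1.09 (adjusted p = 0.0133).

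Against KO MSC, Bax in tumors was 1.04 ± 0.41 higher and did not pass (adjusted p = 0.159), and the groups overlapped. This comparison turned on single libraries. Without the library labelled KO_MSC 3 the Bax difference was 1.48 (adjusted p = 0.0426), and without those labelled KO_MSC 1 and 2 together it was 0.17. Over its 22 alternatives with a test the adjusted p ran between 0.00432 and 0.903. KO MSC averaged 10.2 ± 0.76 and WT MSC 9.35 ± 0.13 (SD, n = 3 each), a difference of 0.84 ± 0.45 (adjusted p = 0.629), with no overlap between the groups, as in 15.2% of all genes tested. With the library labelled KO_MSC 3 alone standing for KO MSC, and assumed to vary like WT MSC, Bax was 1.72 higher than in WT MSC (adjusted p = 0.0340, and 0.0340 to 0.9999 over 19 alternatives).

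Bak1 is the other effector, and per length its tumor level, 5.06 on the log2 scale, was well under the 11.10 of Bax. Its values in tumors were 5.07 at the lowest, 6.48 at the median and 7.004 at the highest, with the lowest value in tumor 4. The libraries labelled KO_MSC 1, 2 and 3 had 5.31, 6.31 and 6.49, and WT_MSC 1, 2 and 3 had 5.18, 5.79 and 6.01. The groups overlapped throughout, and the difference of tumors from WT MSC was 0.65 ± 0.41 (adjusted p = 0.268). Of the exonic bases of Bak1, 25.5% are shared with its neighbour Ggnbp1, and of those of Bax, 12.2% with Gm45808. Reads there cannot be assigned to a gene with certainty. The library kit did not mark strand, and the strands of the neighbours were not compared.

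Of the BH3-only genes, Pmaip1 rose in tumors. Its values in tumors ran from 5.93 at the lowest through a median of 7.06 to 8.33 at the highest. The libraries labelled KO_MSC 1, 2 and 3 had 5.59, 5.97 and 5.01, and WT_MSC 1, 2 and 3 had 5.18, 5.01 and 5.01. The value 5.01 is the floor of batch 2, so Pmaip1 was at the floor in 1 KO MSC and 2 WT MSC libraries and above it in all 6 tumors. On the log2 scale it was 2.12 ± 0.48 higher in tumors than in WT MSC (adjusted p = 0.0112), with no overlap. As the WT MSC sit at or near the floor, this difference can understate the change, and no fold is given.

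Within batch 1 Pmaip1 was 1.43 higher in tumors than in the WT MSC library (no test), and within batch 2 it was 2.75 higher (adjusted p = 0.0878). It passed in 17 of 20 alternatives, with adjusted p between 0.000979 and 0.0878. Without WT_MSC 3 it just missed the threshold, at 2.09 (adjusted p = 0.0505). Against KO MSC the difference of 1.66 ± 0.55 did not pass (adjusted p = 0.0981), and only tumor 2, at 5.93, lay below the highest KO MSC library. KO MSC averaged 5.52 ± 0.49 and WT MSC 5.06 ± 0.099 (SD, n = 3 each), a difference of 0.46 ± 0.26 (adjusted p = 0.654).

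Bbc3 ran the other way between the MSC groups without passing. It had 6.88, 6.95 and 5.93 in the libraries labelled KO_MSC 1, 2 and 3, against 6.999, 7.48 and 7.11 in WT_MSC 1, 2 and 3. All 3 KO MSC lay below all 3 WT MSC, with no overlap, as in 15.2% of all genes tested. The library labelled KO_MSC 3 lay lowest. The difference was -0.61 ± 0.48 (adjusted p = 0.746). Tumors, at 6.41 to 7.65 with a median of 6.94, overlapped both MSC groups, and all lay above the library labelled KO_MSC 3. They differed from WT MSC by -0.19 ± 0.35 (adjusted p = 0.715). Bcl2l11, which growth factor withdrawal is known to raise, had 7.73 at the lowest, 8.12 at the median and 8.65 at the highest in tumors. It lay between 7.66 and 8.998 in KO MSC and between 7.93 and 8.53 in WT MSC. Its difference of tumors from WT MSC, -0.12 ± 0.31 (adjusted p = 0.808), was the smallest of the 10, and its sign turned under 3 alternatives.

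None of the 3 guardians passed in any comparison. Bcl2 had 7.17 at the lowest, 7.62 at the median and 8.13 at the highest in tumors. It had 7.36, 8.15 and 6.69 in the libraries labelled KO_MSC 1, 2 and 3, and 8.28, 8.03 and 8.17 in WT_MSC 1, 2 and 3. Of the 6 tumors, 5 lay below every WT MSC and tumor 1 lay among them. The Bcl2 difference of tumors from WT MSC was -0.54 ± 0.29 (adjusted p = 0.195), and that of KO from WT MSC was -0.76 ± 0.48 (adjusted p = 0.682). Without the libraries labelled KO_MSC 1 and 2 together the second was -1.47 (adjusted p = 0.0488, and 0.0488 to 0.9999 over 19 alternatives), resting on 1 KO MSC library.

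Bcl2l1 had 7.25 at the lowest, 8.49 at the median and 9.10 at the highest in tumors. It had 9.74, 8.69 and 8.86 in the libraries labelled KO_MSC 1, 2 and 3, and 10.32, 8.96 and 8.63 in WT_MSC 1, 2 and 3. The highest of each MSC group was its library of batch 1. The Bcl2l1 difference of tumors from WT MSC was -0.86 ± 0.48 (adjusted p = 0.213), which was -2.29 within batch 1 (1 WT MSC library, no test) and 0.05 within batch 2. Mcl1, whose protein turns over quickly, had 9.68 at the lowest, 10.29 at the median and 11.57 at the highest in tumors. It had 9.68, 10.04 and 10.19 in the libraries labelled KO_MSC 1, 2 and 3, and 9.23, 9.81 and 9.91 in WT_MSC 1, 2 and 3. Mcl1 was 0.80 ± 0.45 higher in tumors than in WT MSC, which did not pass (adjusted p = 0.214).

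Of the death receptors, neither passed, but most tumors lay below the WT MSC in Fas. Fas had 6.12 at the lowest, 6.94 at the median and 7.47 at the highest in tumors. It had 6.86, 7.50 and 5.15 in the libraries labelled KO_MSC 1, 2 and 3, and 7.40, 8.12 and 8.02 in WT_MSC 1, 2 and 3. Of the 6 tumors, 5 lay below every WT MSC, and tumor 5, at 7.47, lay just above the lowest of them. The Fas difference of tumors from WT MSC was -0.97 ± 0.36 (adjusted p = 0.0780), and 4 of 21 alternatives brought it past the threshold, with adjusted p between 0.00528 and 0.269. One of these 4 was the correction for transcript length, where the difference was -1.39 (adjusted p = 0.0178). The difference of KO from WT MSC was -1.34 ± 0.66 (adjusted p = 0.608), and -2.69 without the libraries labelled KO_MSC 1 and 2 together (adjusted p = 0.0304, and 0.0304 to 0.9999 over 19 alternatives), again with 1 KO MSC library left.

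Tnfrsf10b did not pass either. It had 5.60 at the lowest, 5.93 at the median and 6.70 at the highest in tumors, 5.18, 5.75 and 5.12 in the libraries labelled KO_MSC 1, 2 and 3, and 5.34, 5.47 and 5.67 in WT_MSC 1, 2 and 3. It was higher in tumors than in WT MSC by 0.58 ± 0.31 (adjusted p = 0.191) and than in KO MSC by 0.73 ± 0.36 (adjusted p = 0.213). Apart from Bax and Pmaip1, the differences of tumors from KO MSC ran from -0.66 ± 0.46 for Bcl2l1 to this value. Corrected for transcript length, the difference of tumors from WT MSC was 0.90 and passed (adjusted p = 0.0474, and 0.0474 to 0.443 over 20 alternatives).

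**Figure D2:**
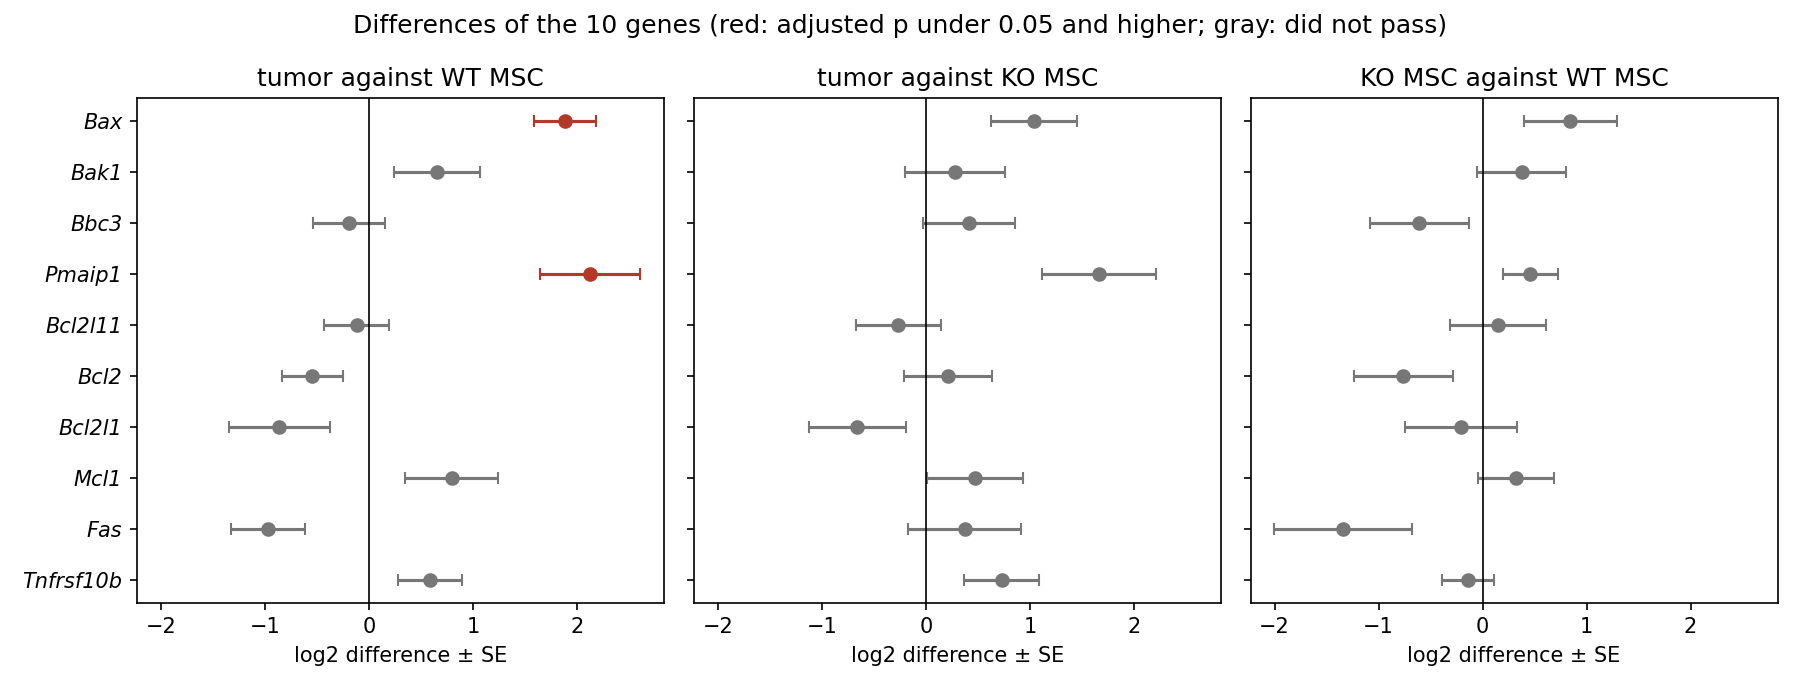
Log2 difference with its SE (horizontal axis) for the 10 genes for tumors less WT MSC, tumors less KO MSC and KO less WT MSC (left to right), in red where the adjusted p was under 0.05. In tumor against WT MSC, Bax at 1.88 and Pmaip1 at 2.12 passed an adjusted p of 0.05, and in the other comparisons no gene passed.

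The tumors themselves were spread unevenly across the genes. Pmaip1 had the largest SD among the 6 tumors, 0.86, followed by Mcl1 with 0.76 and by Bcl2l1 and Bak1 with 0.68 each. Bcl2, with 0.32, and Bax, with 0.36, had the smallest. Single tumors carried some of this spread, as the SD of Bak1 was 0.33 without tumor 4, that of Bcl2l1 0.40 without tumor 3 and that of Fas 0.29 without tumor 6, against 0.45 with it. Tumor 2 was lowest for Pmaip1 and Bcl2, and tumor 6 was highest for Pmaip1 and Bcl2l1 and lowest for Fas and Bcl2l11. Tumor 5 had the highest Bax, Mcl1 and Fas. Tumors 5 and 6 held the highest Bax and Pmaip1. Macrophage markers summed to 109.1, 101.9 and 94.5 in tumors 4, 5 and 6, all of batch 2. In tumors 1, 2 and 3, of batch 1, they summed to 85.8, 85.9 and 86.3. Batch and macrophage level thus cannot be told apart among the tumors, and a link of either to Bax or Pmaip1 was not tested.

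Levels of different genes can be set side by side only per length. On the log2 scale less the log2 of the longest coding transcript in kilobases, Bax ranked first in each group, at 11.10 ± 0.36 in tumors, 10.06 ± 0.76 in KO MSC and 9.21 ± 0.13 in WT MSC (SD). Mcl1 came second in tumors, at 8.67, and in KO MSC, at 8.20. In WT MSC, Bcl2l1 at 7.95 and Mcl1 at 7.88 followed Bax and lay within their spread of each other. Pmaip1 ranked lowest in WT MSC, at 3.62, ninth in KO MSC, at 4.08, and seventh in tumors, at 5.74. Tnfrsf10b was lowest in tumors, at 4.41, and in KO MSC, at 3.68. Bcl2 was ninth in tumors, at 4.77, and seventh in WT MSC, at 5.31. Genes near the floor are placed too high on this scale.

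Differences between 2 genes of the same library leave out a factor that scales a whole library, but not the trend with transcript length given below, and Bax (1100 bases) and Bcl2 (7191 bases) lie in the shortest and longest of its bins. The log2 value of Bax less that of Bcl2 was 2.75 at the lowest, 3.62 on average and 4.11 at the highest in tumors, with an SD of 0.49. The difference came to 2.33, 1.68 and 4.38 in the libraries labelled KO_MSC 1, 2 and 3, and to 1.17, 1.18 and 1.22 in WT_MSC 1, 2 and 3. Tumors and WT MSC did not overlap, and the library labelled KO_MSC 3 lay above every tumor while the other KO MSC lay between the WT MSC and the lowest tumor. Bcl2l11 less Mcl1 averaged -2.29 ± 0.94 in tumors, -1.55 ± 0.85 in KO MSC and -1.37 ± 0.50 in WT MSC (SD). Bbc3 less Bcl2l1 averaged -1.44 ± 0.78 in tumors, -2.51 ± 0.67 in KO MSC and -2.11 ± 1.05 in WT MSC (SD), with overlap between tumors and WT MSC in both. These pairs, a killer and a guardian each, are a description with no test.

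**Figure D3:**
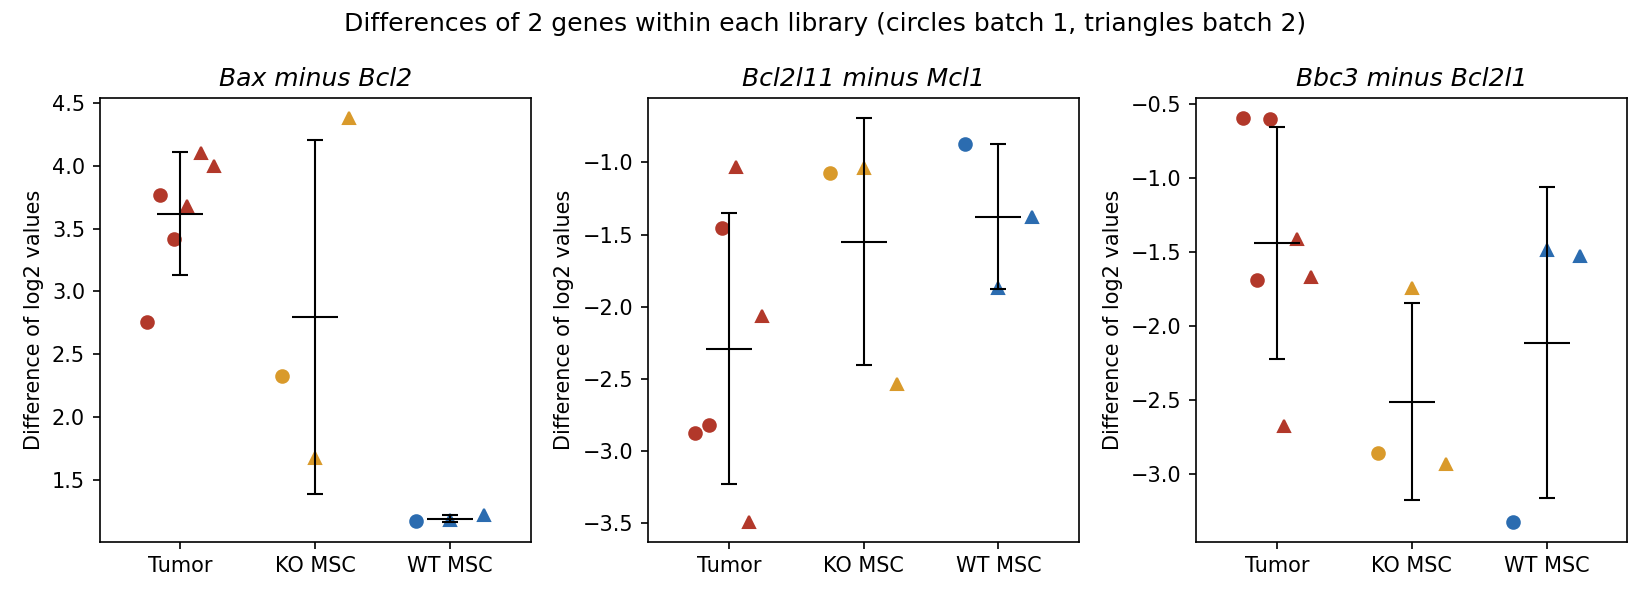
Difference of the log2 values of 2 genes within each library (vertical axes) for tumors, KO MSC and WT MSC, with circles for batch 1, triangles for batch 2 and bars for mean ± SD. For Bax minus Bcl2 the 6 tumors lie at 2.75 to 4.11 and the 3 WT MSC at 1.17 to 1.22.

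The patterns most like that of Bax over the 12 libraries were those of Lamtor1, Zbed5 and Ssu72, with Pearson correlations of 0.98, 0.98 and 0.98. Lamtor1 anchors the mTORC1 machinery on lysosomes, and Ssu72 is a phosphatase of RNA polymerase II. Most like Pmaip1 were Cryba4, a lens crystallin, Sh2d1b1, an adaptor of natural killer cells, and Bnip2, named for its binding to BCL2, with correlations of 0.97, 0.97 and 0.96. The libraries share their groups and batches, so genes that differ between tumors and MSC can rank high for that alone.

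Other genes of the pathway were taken from lists named for their roles, 47 genes of which 46 were tested (Trp73 was not). Against WT MSC, 11 of the 46 rose in tumors, 5 fell and 30 did not pass, beside the 21.3% of all genes that passed. The 5 include Trp53, the gene knocked out in the mice that bore the tumors. The median difference of the 46 was 0.24, against -0.06 over all genes. Against KO MSC 3 rose, 1 fell and 42 did not pass, beside the 4.98% of all genes that passed, and 0 passed without the libraries labelled KO_MSC 1 and 2 together. Between KO and WT MSC 0 passed with limma, 3 had an unadjusted p under 0.05 (8.64% of all genes) and the median difference was 0.17. There, 7 passed without those 2 libraries, where 3171 of all genes passed.

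Among the other effectors and BH3-only genes, 3 of 6 rose in tumors against WT MSC. Bok, a Bax-like family member, averaged 10.02 ± 0.83 in tumors and 8.08 ± 0.090 in WT MSC (SD), a difference of 1.95 ± 0.46 (SE, adjusted p = 0.0134). Bad, which binds Bcl2 and Bcl2l1, was 1.60 ± 0.31 higher (adjusted p = 0.00573), and Bik 1.55 ± 0.33 higher (adjusted p = 0.00866). Bik was at the floor in 1 WT MSC library. The Bok call was lost without WT_MSC 1 or WT_MSC 3 (adjusted p 0.0599 and 0.0577), and the Bik call without WT_MSC 1 (0.0627). Against KO MSC, Bok was 2.17 ± 0.57 higher and did not pass (adjusted p = 0.0531).

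The other guardians were led by the A1 genes Bcl2a1a, Bcl2a1b and Bcl2a1d, which are known from blood cells. Bcl2a1b had 8.03 at the lowest, 11.09 at the median and 13.41 at the highest in tumors. It stayed at the floor of 5.75 in the libraries labelled KO_MSC 2 and 3 and in WT_MSC 2 and 3, and at 4.30 in that labelled KO_MSC 1 and 4.44 in WT_MSC 1. The 3 genes rose by 4.48 to 5.66 against KO MSC (adjusted p 0.00696 to 0.0138) and by 4.49 to 5.62 against WT MSC (adjusted p 0.00242 to 0.00440). They are nearly identical copies, so how reads were divided among them is uncertain, and the part of macrophages, whose markers are given above, was not tested. All 3 calls against KO MSC were lost without the library labelled KO_MSC 1 (adjusted p 0.0724 to 0.107) and without those labelled KO_MSC 1 and 2 together (0.137 to 0.182). Bcl2l2 and Bcl2l10 did not pass in any comparison.

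In the death receptor arm, Tnfrsf1a, the main TNF receptor, had 8.45 at the lowest, 9.64 at the median and 9.86 at the highest in tumors, against 11.05 at the lowest, 11.31 at the median and 11.86 at the highest in WT MSC. It fell by 2.09 ± 0.39 (adjusted p = 0.00476). Ripk1, the kinase that TNF receptor complexes recruit, fell by 1.23 ± 0.38 (adjusted p = 0.0402), with overlapping groups. Fasl, the ligand of Fas, was 0.98 ± 0.26 higher in tumors than in WT MSC (adjusted p = 0.0214), with 2 WT MSC at the floor. Fadd, Tradd, Casp8, Cflar and Tnfsf10 did not pass in any comparison. The Ripk1 call was lost without tumor 2, 3, 5 or 6 or without any 1 WT MSC (adjusted p 0.0566 to 0.147), and that of Fasl without any 1 WT MSC (0.0728 to 0.0940).

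Downstream of mitochondria, Casp9, the initiator caspase that Apaf1 activates, fell in tumors against both MSC groups. It had 6.85 at the lowest, 7.69 at the median and 7.98 at the highest in tumors, 9.67, 9.15 and 9.35 in the libraries labelled KO_MSC 1, 2 and 3 and 9.78, 9.20 and 8.78 in WT_MSC 1, 2 and 3. No tumor reached any MSC library. The difference was -1.79 ± 0.37 against KO MSC (adjusted p = 0.0223) and -1.65 ± 0.35 against WT MSC (adjusted p = 0.00780). These comparisons share the tumors. The call against KO MSC was lost without the library labelled KO_MSC 1 or 2 (adjusted p 0.129 and 0.0606) and without both (-1.74, adjusted p = 0.155). That against WT MSC was lost without WT_MSC 1 (0.0537).

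Cycs, cytochrome c, was 3.68 ± 0.74 higher in tumors than in WT MSC (adjusted p = 0.00631). It was 5.79 higher within batch 1 (no test) and 2.37 within batch 2 (adjusted p = 0.136), and pseudogene copies of it make its read assignment uncertain. Casp6 did not pass in any comparison. Of the inhibitors, Birc5 (survivin), which dividing cells express, was 1.43 ± 0.42 higher in tumors than in WT MSC (adjusted p = 0.0330). Its call was lost without tumor 2, 3, 5 or 6 or without WT_MSC 1 or 2 (adjusted p 0.0525 to 0.151). Birc5 also had the smallest unadjusted p of these genes between KO and WT MSC, at 1.61 ± 0.46 higher (adjusted p = 0.551), with no overlap. Siva1 and Htra2, at 1.503 ± 0.48 and 1.45 ± 0.49 higher, were the others with an unadjusted p under 0.05 there (adjusted p = 0.551 for each).

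Of the p53-linked death genes, Siva1 rose by 1.89 ± 0.36 (adjusted p = 0.00481) and Zmat3, an RNA-binding p53 target, by 1.32 ± 0.41 (adjusted p = 0.0406) in tumors against WT MSC. Trp53 itself fell by 2.33 ± 0.51 (adjusted p = 0.00901). It is the gene knocked out in the mice that bore the tumors, so its call is no separate result about the pathway. Pidd1, the scaffold of the caspase 2 complex, fell by 1.54 ± 0.46 (adjusted p = 0.0376), with 2 of the 6 tumors at the floor. Corrected for transcript length, Siva1 was 0.88 higher and did not pass (adjusted p = 0.0779). Leaving out 1 library in turn lost the call of Zmat3 without tumor 1, 2 or 5 or any WT MSC (adjusted p 0.0525 to 0.171), that of Pidd1 without any tumor but tumor 4 or without WT_MSC 1 or 3 (0.0585 to 0.169), and that of Trp53 without WT_MSC 3 (0.0506). Among 6 other p53 targets set beside them, Cdkn1a (p21) rose by 2.42 ± 0.46 (adjusted p = 0.00509), which was 3.85 within batch 1 (no test) and 1.52 within batch 2 (adjusted p = 0.0878). Mdm2, Ccng1, Phlda3, Sesn2 and Eda2r did not pass. Against KO MSC and between KO and WT MSC 0 of these 6 passed.

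**Figure D4:**
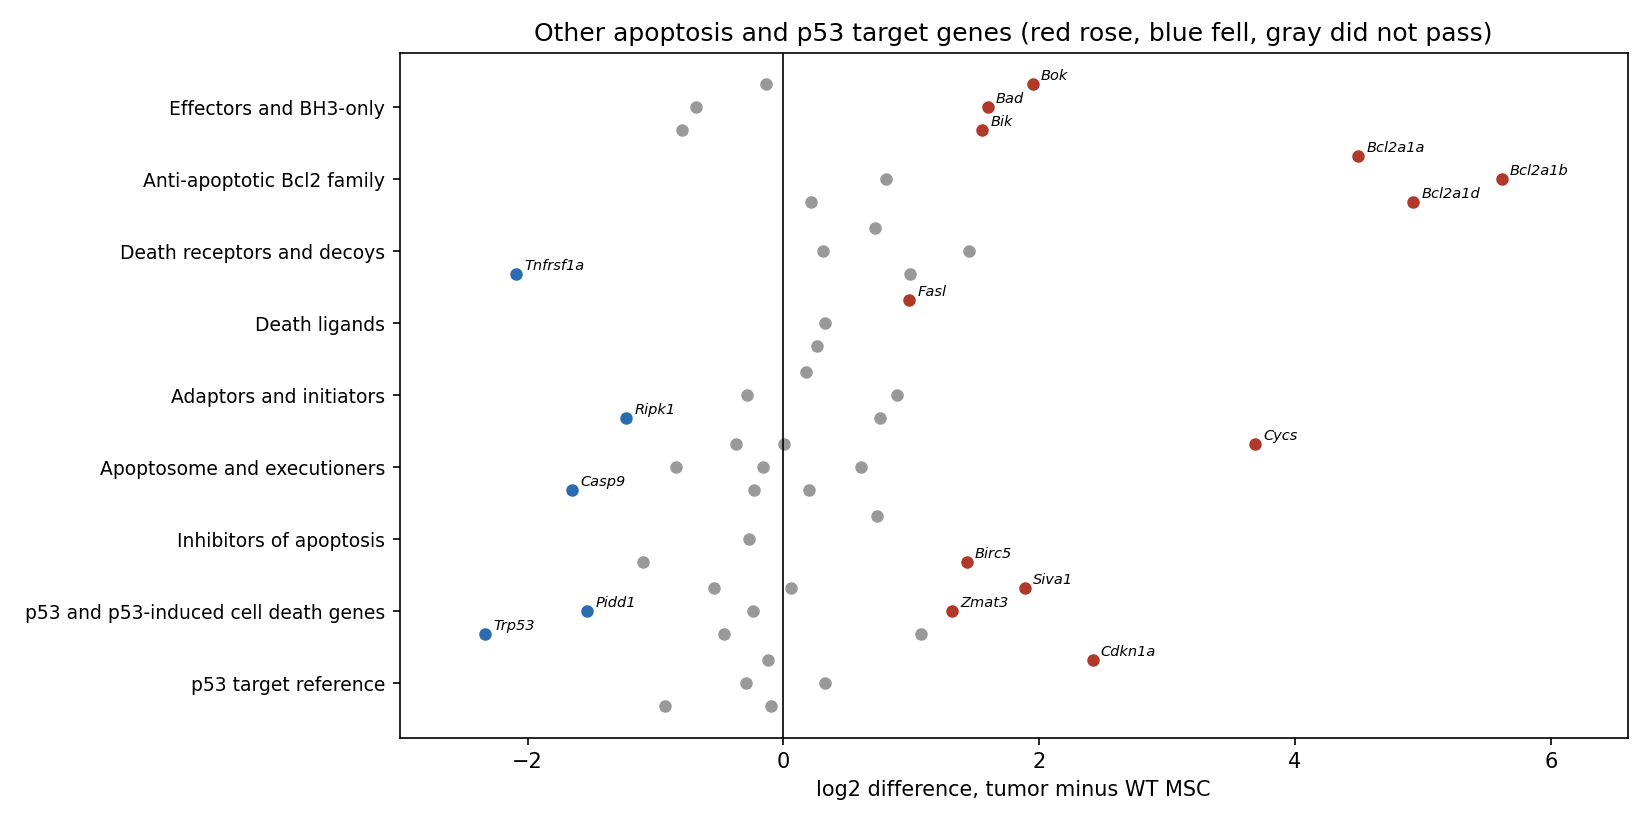
Log2 difference of tumor minus WT MSC (horizontal axis) for each of the 46 other pathway genes and the 6 further p53 targets, in rows by role, in red or blue where the gene rose or fell at an adjusted p under 0.05 and in gray where it did not pass; vertical offsets within a row only separate points. The A1 genes stand farthest to the right at 4.49 to 5.62, and Trp53 and Tnfrsf1a farthest to the left at -2.33 and -2.09.

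Differences of tumors from WT MSC varied with transcript length over all genes. Lengths of the longest coding transcript were found for 16294 of the 18948 genes tested (86.0%). Among the 4074 genes with the shortest transcripts, of 216 to 1913 bases, 26.6% were higher in tumors than in WT MSC and 3.58% lower, with a median difference of 0.47. Among those of 3025 to 4546 bases 5.35% were higher and 17.6% lower, with a median of -0.32. Bax (1100 bases), Fas (1481) and Bbc3 (1814) are in the first of these bins, as are 7 of the 11 other pathway genes that rose (Bok, Bad, Bik, Siva1 and the A1 genes). Pmaip1 has 2727 bases and Tnfrsf10b 3179.

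A correction that takes out each library's smooth trend with length over those 16294 genes was chosen after the data were seen. With it, 4 of the 10 genes passed in tumors against WT MSC. Of all 16294 genes, 4040 passed there, 1866 higher and 2174 lower, the background for this count. Bax (1.09), Pmaip1 (2.36) and Tnfrsf10b (0.90) were higher and Fas (-1.39) lower. Of the 16 calls among the other pathway genes, those of Siva1 and Pidd1 were lost with it. Against KO MSC, Pmaip1 was then 1.77 higher (adjusted p = 0.0475) and Bax 0.60 (adjusted p = 0.261). Tumor RNA was extracted with TRIzol and a column, and MSC were lysed in a column buffer, so the extraction, the length trend and the tumor state cannot be told apart.

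**Figure D5:**
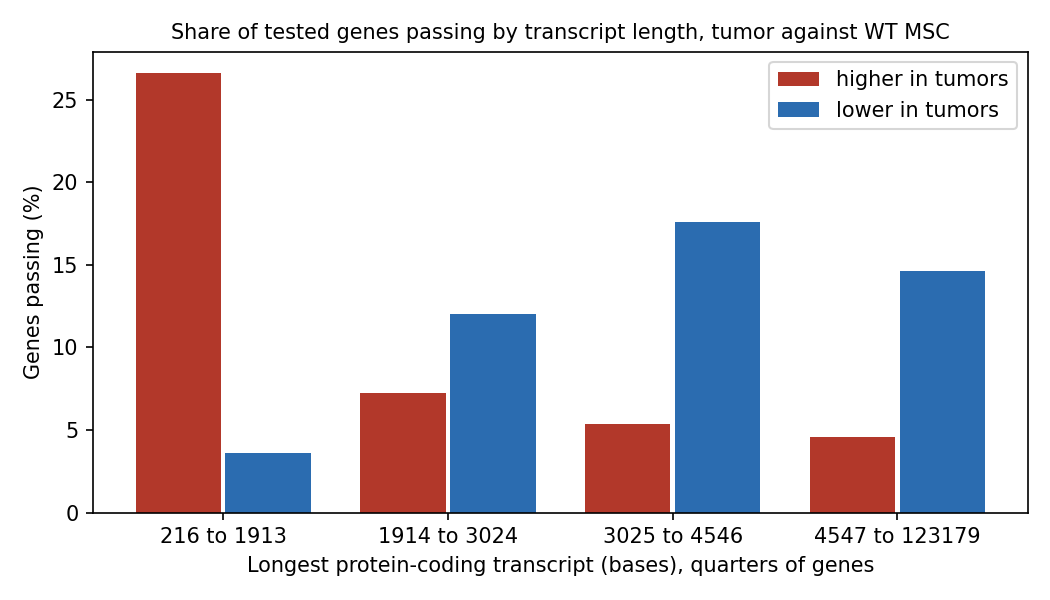
Percent of tested genes that passed as higher or lower in tumors than in WT MSC (vertical axis) in each of 4 equal bins of transcript length (horizontal axis, bases). The bin of the shortest, which holds Bax, Fas and Bbc3, has 26.6% higher and 3.58% lower, and in the other bins more genes passed as lower than as higher.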

How the data were processed

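RNA of 12 mouse libraries was measured by bulk sequencing: 6 of tumors, 3 of KO MSC and 3 of WT MSC. Per the labels' protocols, cDNA was made with SMART-Seq v4, sheared and made into unstranded libraries. The build mm10 and the tools TopHat2 2.0.13, Cufflinks 2.2.1 and Cuffdiff are listed, per the submitters' processing notes, with later steps not given in the sources used here. Analysed values are the log2 values the authors deposited for 24421 genes in a table titled as stabilized and batch-adjusted. The authors' other deposited table, titled as normalized counts, holds a score: in 100% of its 18949 genes the values equal the rounded stabilized value times 100 over a factor of the library (tolerance 0.01). Neither gives reads, so depth is unknown and no counting interval is given.

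Groups were compared pair by pair in limma 3.58.1 under R 4.3.3 (two-sided, lmFit and trended eBayes, without covariates), with Benjamini-Hochberg adjustment over the 18948 genes of the other table that varied. An adjusted p under 0.05 passed. The fit was tested on simulated data. P-values take no account of the authors' batch adjustment and can be too small. Batches were read from exactly shared floor values. Values of the listed genes were called at the floor within a tolerance of 1e-05. Floors in batch 1 lay up to 1.92 from the value of genes that were the same in all libraries. Comparisons with tumors share the tumor libraries, and both comparisons with WT MSC share those.

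All 10 genes are named. Of each other list, genes that passed are named and, where none did, up to 2 with the smallest unadjusted p. For members that passed, the 3 genes most correlated with each are named. The genes, lists and tests were chosen with earlier results of these data known. Alternatives were the other table, filters, batch as a term, each batch, the replicate number as a block, scalings, library weights, no trend, 1 fit over 3 groups, leaving out libraries and, chosen after seeing the data, a lowess correction for the longest coding transcript (GENCODE M21). Promoters came from RefSeq (GRCm38.p6). Gene sequence of Pmaip1 and the values of some listed genes are not reported here.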

Additional observations from a re-analysis of the deposited data

How the results depend on the processing

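Depth is unknown and low genes sit on a floor, so small differences of Pmaip1, Tnfrsf10b and Bak1 cannot be resolved. In tumor against WT MSC, Bax and Pmaip1 kept their direction under every alternative run. The cause of each change below was not tested. Some settings also hold fewer libraries or genes. With the replicate block, tumors 4 to 6 have no MSC library of their number. Differences of tumors from MSC then rest on tumors 1 to 3.

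All genes passing numbered 4033 in tumor against WT MSC, and 540 within batch 2, 1445 with the replicate block, 6821 with library weights and 1856 to 4737 when 1 library was left out. The 2 members that passed became 0 within batch 2 and with the block (Bax 1.64, adjusted p = 0.0538, and Pmaip1 1.55, adjusted p = 0.0659). Their number was 4 with the length correction, where 4040 of 16294 genes passed, and 1 to 2 when 1 library was left out. The 16 other apoptosis genes became 0 within batch 2, 4 with the block and 8 to 18 when 1 library was left out.

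In tumor against KO MSC, 944 genes passed, and 27 within batch 2, 34 with the replicate block, 1545 with quantile scaling, 4821 with library weights, 1613 with the length correction, 1923 in 1 fit over 3 groups, 94 without the libraries labelled KO_MSC 1 and 2, and 113 to 1627 when 1 library was left out. The 0 members became 2 with library weights, 1 with the length correction, 1 in 1 fit over 3 groups and 0 to 1 when 1 library was left out. The 4 other apoptosis genes became 9 with a mean of at least log2 of 100, 9 with quantile scaling, 18 with library weights, 12 in 1 fit over 3 groups, 0 within batch 2, 0 with the block, 0 without the libraries labelled KO_MSC 1 and 2, and 0 to 7 when 1 library was left out.

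In KO against WT MSC, 0 genes passed, and 43 within batch 2, 2447 with library weights and 3171 without the libraries labelled KO_MSC 1 and 2. The 0 members became 1 with library weights (Pmaip1) and 3 without those libraries. The 0 other apoptosis genes became 5 with library weights and 7 without those libraries.

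Signs turned for values that did not pass. In KO against WT MSC, these were Pmaip1 (-0.057 without the libraries labelled KO_MSC 1 and 2), Bcl2l1 (-0.54 to 0.30 when 1 was left out, above 0 without WT_MSC 1), Bcl2l11 (-0.62 without those 2 libraries, and -0.14 to 0.53 when 1 was left out) and Tnfrsf10b (0.071 with quantile scaling, 0.087 with library weights, 0.058 with the length correction). In tumor against KO MSC, these were Bak1 (-0.42 within batch 2, -0.18 without the 2 libraries, and -0.087 to 0.53 when 1 was left out), Bcl2 (-0.39 with library weights, -0.14 to 0.59 when 1 was left out), Bcl2l1 (0.072 within batch 2), Bcl2l11 (0.50 without the 2 libraries, -0.65 to 0.021 when 1 was left out), Fas (-0.52 with library weights, -0.30 to 0.87 when 1 was left out) and Trp53 (0.92 without the 2 libraries). In tumor against WT MSC, these were Bcl2l1 (0.051 within batch 2) and Bcl2l11 (0.044 with quantile scaling, 0.19 with the length correction, -0.29 to 0.0092 when 1 was left out).

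The titles do not say whether libraries of the same number are paired, and those numbered 1 also share batch 1. Correlations of the deviations of same-numbered libraries ran from -0.32 to 0.24. At most 1 of 3 pairs in a comparison correlated best with its own number. With so few libraries, these values cannot decide whether there was a pairing.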
